A study of Drosophila melanogaster with 6 samples.

Results

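Long noncoding RNA genes were examined in tumors of the Drosophila salivary gland imaginal ring, a small band of diploid progenitors between the duct and the secretory cells of the larval gland. A gene was taken as a member when its symbol was CR followed by a number, began with lncRNA: or asRNA:, or was Hsromega, roX1, roX2 or bft. The authors' deposited table of NICD tumor against control lists 162 such genes among 6156 genes in all (2.63%). roX2 and bft are not in that table, and no member carried the lncRNA: or asRNA: prefix.

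RNA sequencing compared 3 NICD tumor samples with 3 control samples. The tumors carried Actts>GFP+NICD, so that an actin driver expressed GFP and NICD, the intracellular part of the Notch receptor, which switches on Notch target genes in the nucleus. The tumor labels give 7 days at 18 degrees and a further 7 days at 29 degrees. The controls carried Actts>GFP, the same driver with GFP alone, and their label gives the last larval instar, with no days or temperatures. Both groups held Gal80ts, which represses the driver at low temperature and so set the start of expression. The actin driver is active in most cell types, and the labels do not say how the ring was separated from neighbouring tissue or how many animals a sample pooled. Age and temperature as labelled differ along with genotype, so their parts in any difference cannot be told apart. Whether the samples of a group were separate animals or pools is not said in the labels, and the authors' p-values then reflect only the spread among the deposited samples, which may be technical.

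Long noncoding RNAs are transcripts without a recognised protein. Some act as scaffolds for nuclear proteins, some regulate the gene beside them, some are precursors of microRNAs or small nucleolar RNAs, and for most no role is known. In Drosophila the best known are roX1 and roX2, which work in the male dosage compensation complex on the X chromosome, and Hsromega, a heat-inducible RNA that organises nuclear speckles of RNA-binding proteins. Antisense transcripts run across an annotated gene on the other strand, and pseudogenes are decayed copies of genes.

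The values are the authors' own, one per gene, and no value per sample was used here. The depth of the libraries is therefore unknown, and no SD or n accompanies a fold change. A positive log2 fold change means higher in NICD tumor. CPM is counts per 1000000 reads, given by the authors as a mean over all libraries. Where a level of a single group is printed, it was estimated from that mean and the fold change and is called an estimate. Over all listed genes those estimates sum to 351471 CPM in NICD tumor and 1224976 CPM in control, so an estimated level is not a share of the reads.

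The authors tested 9384 genes and called 65.6% of them, 34.0% higher and 31.6% lower, at an adjusted p below 0.05. These calls stand under the authors' heading "log 1.2". The adjusted p may thus be against a minimum fold rather than against no change, which the sources do not spell out. Since the table holds called genes only, how many noncoding RNA genes were tested and not called is unknown, and the share called among them cannot be given. Of the 162 listed members, 102 were higher and 60 lower in NICD tumor in the authors' deposited table. That is 63.0% higher, against 51.8% of all listed genes (3187 higher and 2969 lower). The median log2 fold change of the members was 1.71, with quartiles of -2.23 and 3.38, against a median of 0.57 over all listed genes. Among the 24 members outside the lowest bin of abundance (mean log2 CPM of 3.06 or more), however, 12 were higher and 12 lower, and their median was -0.074. The extremes were CR45045 at 10.62 and CR44316 at -12.74 in the authors' deposited table.

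The changes of the listed members were large, but most members were rare, and rare genes are listed only at larger changes. The median size of their log2 fold change was 2.77, against 1.64 over all listed genes. At least 2-fold changes were found in 98 members that were higher and 54 that were lower, 93.8% of the members against 76.5% of all listed genes (26.7% and 23.5% of all tested genes by direction). At least 16-fold changes were found in 35 members that were higher and 17 that were lower (4.04% and 3.14% of all tested genes). As shares of the listed members these are 21.6% and 10.5%, against 6.16% and 4.79% of all listed genes. The authors' adjusted p values of the members ran from 7.82e-06 to 0.0471, and 115 members (71.0%) were below 0.01, against 79.3% of all listed genes. Of these, 67 were higher and 48 lower, where 26.2% and 25.8% of all tested genes passed that limit.

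A later annotation (BDGP6, version 54, Ensembl release 115) was used to see what the members are. All 162 matched a gene in it. It calls 108 of them long noncoding RNAs, 34 antisense RNAs, 17 pseudogenes and 3 protein-coding genes. The 17 pseudogenes are the same 17 whose gene name in the authors' deposited table says pseudo. Of the long noncoding RNAs 67 were higher and 41 lower (median log2 fold change 1.79), of the antisense RNAs 23 were higher and 11 lower (1.87), and of the pseudogenes 11 were higher and 6 lower (1.64). No test between these classes was run. The 3 genes now held to be coding are CR45045 (CG45045), CR44404 (IBIN) and CR43051 (CG43051). IBIN encodes a short peptide induced by infection, and it was 5.76-fold lower in NICD tumor in the authors' deposited table (adjusted p = 0.0249), and is named because of that value.

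Most members were rare transcripts. Their median of the mean log2 CPM was 0.85, which is 1.80 CPM, against 4.65 (25.1 CPM) over all listed genes. All listed genes were cut into 4 bins of equal size by mean log2 CPM, at 3.06, 4.65 and 6.01. The lowest bin held 138 of the 162 members, and the bins above it held 14, 4 and 6.

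**Figure D1:**
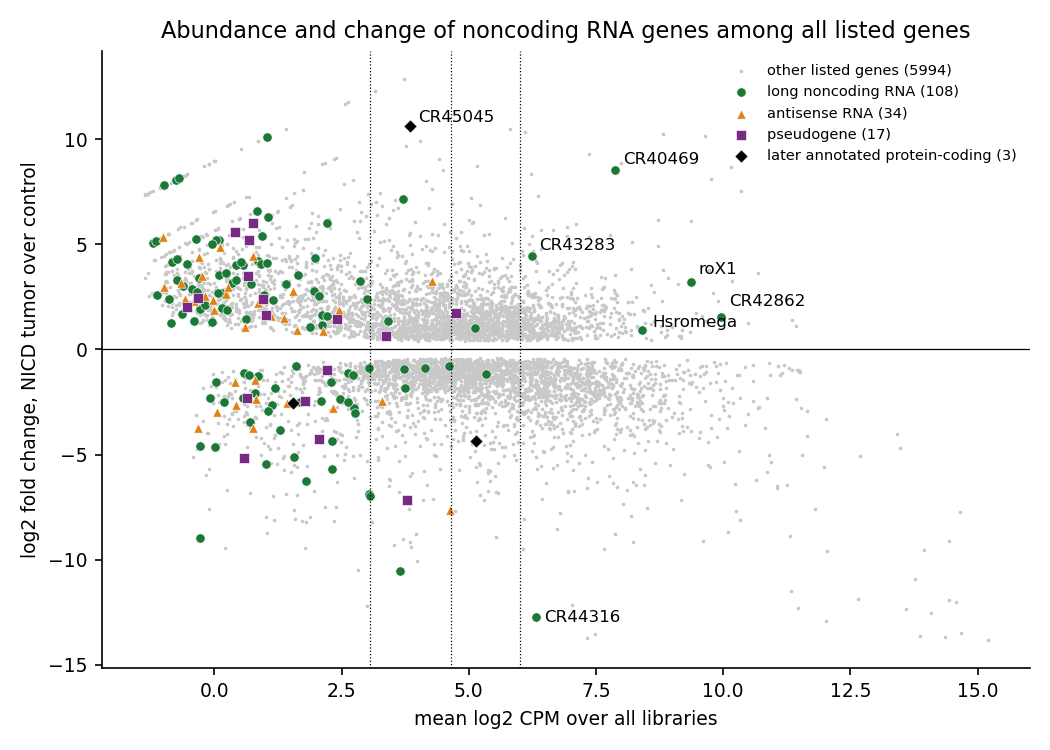
Each point is a gene of the authors' deposited table, placed by its mean log2 CPM over all libraries and its log2 fold change, NICD tumor over control; coloured points are the noncoding RNA genes by their later annotation and grey points the other listed genes. Dotted lines mark the limits of the 4 bins of mean log2 CPM, the 5 members with a group fitted at 0 are drawn at the authors' shrunken value, and 138 members lie left of the first dotted line.

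The share of genes higher in NICD tumor varied with abundance, among members and among the other listed genes. In the lowest bin 90 of 138 members were higher (65.2%), against 71.7% of the 1401 other listed genes there. In the second bin 5 of 14 members were higher, against 52.5% of other genes, and in the third 2 of 4, against 50.6%. In the highest bin 5 of 6 members were higher in NICD tumor, against 32.8% of 1533 other genes. Within the lowest bin, which holds most members, the members' share thus lay below that of the other genes, the reverse of the order over the whole table. No test was run on these shares. The sizes of change of members and other genes lay closer in that bin than over the whole table. Their medians were 2.77 for members and 2.35 for other genes on the log2 scale, and 96.4% of members and 93.3% of other genes differed at least 2-fold. At least 16-fold higher were 22.5% of members and 16.1% of other genes there, and at least 16-fold lower 7.97% and 5.07%.

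When the members were cut into 4 bins of their own, the share higher fell with abundance. With limits at 0.032, 0.85 and 2.22 mean log2 CPM, the shares higher were 85.4%, 65.0%, 60.0% and 41.5% from the lowest to the highest bin. Other listed genes within the same limits were higher in 93.3%, 75.7%, 69.3% and 46.5%, above the members' share in each bin. Across the 162 members, mean log2 CPM and log2 fold change had a Pearson r of -0.23 and a Spearman rho of -0.35, against -0.39 and -0.36 across the 5994 other genes. The size of the change followed abundance little (r 0.03, rho -0.15 across members). All these genes share the same libraries, and a gene of low abundance must change more to be called. The smallest size of log2 fold change listed was 0.58 in the lowest bin of all listed genes and 0.41 to 0.43 in the others. In the members' own lowest bin it was 1.26 for members and 1.16 for other genes, so all of them differed at least 2-fold. From the lowest to the highest of the members' own bins, median sizes were 3.04, 3.05, 2.54 and 2.49 for members. For other genes within the same limits they were 3.24, 2.49, 2.41 and 1.45.

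**Figure D2:**
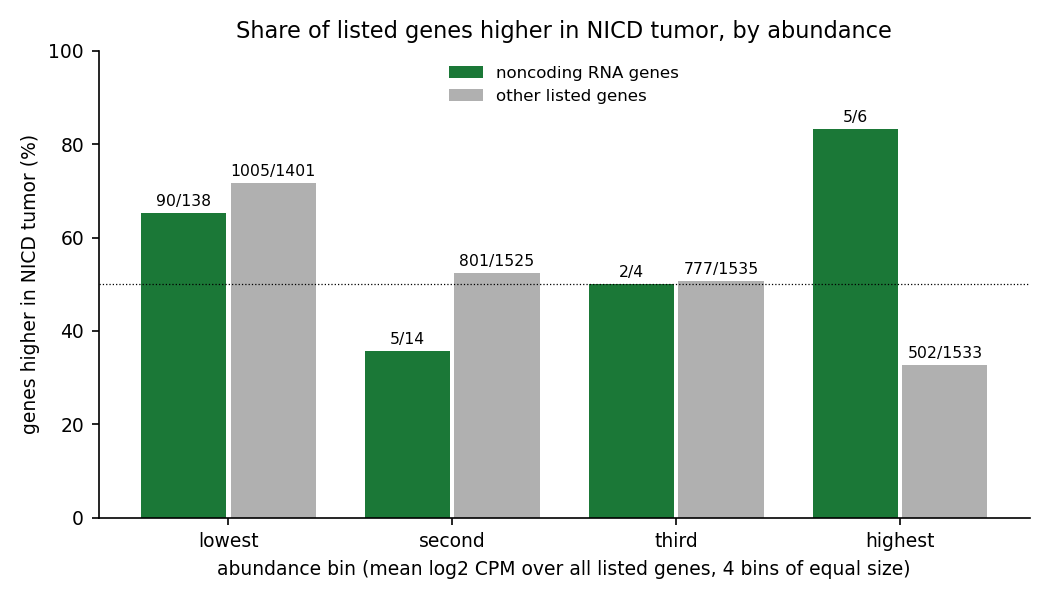
Bars give the percentage of listed genes that were higher in NICD tumor in each bin of mean log2 CPM, noncoding RNA genes in green and all other listed genes in grey, with the number higher over the number listed above each bar. Members stand below the other genes in the lowest bin (65.2% and 71.7%) and above them in the highest (83.3% and 32.8%, from 6 members).

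Of the genes with an established role, roX1 rose. roX1 is an RNA of the complex that raises transcription of the male X chromosome. It was 9.18-fold higher in NICD tumor (log2 fold change 3.20, adjusted p = 0.000104) in the authors' deposited table, with an estimated 1196 CPM in NICD tumor and 130.3 CPM in control. At a mean of 121 CPM per kb of exon it was the fourth most abundant member per length. On the opposite strand its exons overlap ec, which the authors' deposited table lists as 1.85-fold higher.

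Of a list of 15 dosage compensation genes 9 (60.0%) were in the authors' deposited table, close to the 65.6% of all tested genes called. Of these 7 were higher and 2 lower, with a median log2 fold change of 1.27, and without roX1 6 were higher and 2 lower. Genes of a list that are not in the table may have been tested or not, and no test of the lists was run. msl-2, the subunit made only in males, was 4.08-fold higher (estimated 39.1 CPM in NICD tumor and 9.59 CPM in control), and mof, the histone acetyltransferase, 3.04-fold higher in that table. The sex determination gene fru was 4.41-fold and Unr, a regulator of msl-2 translation, 2.41-fold higher in the same table. The helicase mle (1.58-fold) and the scaffold msl-1 (1.52-fold) passed with authors' adjusted p of 0.042 and 0.0474. JIL-1, a histone kinase of the male X, was 1.51-fold lower and dsx 1.62-fold lower by the authors' deposited table. roX2, msl-3, Clamp, Sxl, tra and tra2 were not in the table. Unr, mle, msl-1, JIL-1 and dsx are named here because of their values.

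The labels do not give the sex of the larvae. Of 3 male markers, roX1 and msl-2 are listed and both were higher. The roX1 entry is the member itself, so its rise is the value given above and no separate one. The msl-2 value is of RNA, and its protein was not measured. Of 3 female markers (yolk protein genes also made in fat body) Yp3 is listed. It was 121-fold lower in NICD tumor in the authors' deposited table. Yp3 is also among the fat body markers, of which all 8 listed were lower. Whether the sexes were mixed in other proportions was not tested. In bulk samples, fewer cells of a type and less RNA per cell cannot be told apart. On the X chromosome 15 of 25 listed members were higher (median log2 fold change 1.47), against 58.1% of 976 other X-linked genes (median 0.83). Among other genes not on the X, 50.1% were higher (median 0.45).

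Hsromega, the heat-inducible RNA of nuclear omega speckles, was 1.89-fold higher in NICD tumor in the authors' deposited table (log2 fold change 0.92, adjusted p = 0.00212). Its estimated level was 444 CPM in NICD tumor and 235 CPM in control. Of 26 genes of speckle proteins and heat shock proteins 17 (65.4%, against 65.6% of all tested genes) were listed. All 17 were higher, where 34.0% of all tested genes were called higher and 31.6% lower (median log2 fold change 3.56). Among the chaperone genes Hsp70Bb was 462-fold, Hsp26 30.8-fold and Hsp67Bc 25.4-fold higher by the authors' deposited table. The other Hsp70 copies, each counted among the 17, were 16.7-fold to 92.7-fold higher there. Hsp83, named because of its value, was 2.36-fold higher. Near-identical copies of Hsp70 make its single members uncertain. The speckle protein Hrb98DE was 2.07-fold, Pep 1.82-fold and sqd 1.48-fold higher in the same table, a choice made after their values were seen. Iswi, a chromatin remodeller that binds Hsromega RNA, was 3.06-fold higher there. Hrb87F, which also binds Hsromega, and the heat shock factor gene Hsf were not in the table. Also absent from it were Hrb27C, nonA, Hsp22, Hsp23, Hsp27, Hsp67Ba and Hsp67Bb. The tumor labels give 29 degrees as the last temperature and the control labels give none, so heat and genotype cannot be told apart for these genes.

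Most of the abundance of the group lay in a handful of genes. The members' estimated levels sum to 4350 CPM in NICD tumor and 1744 CPM in control, of which the 6 members of the highest bin give 3746 CPM in NICD tumor and 1043 CPM in control. CR42862 had the highest mean, 1000.2 CPM (182 CPM per kb of exon), and was 2.93-fold higher in NICD tumor in the authors' deposited table (adjusted p = 0.0149). Its estimated level was 1491 CPM in NICD tumor and 509 CPM in control. Its exons overlap those of CG33229 on the same strand, listed as 1.36-fold higher, so reads from that stretch cannot be told apart between them. Per kb of exon the most abundant member was CR40469, at 1103 CPM per kb over 214 bases of exon.

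CR40469 also had the largest rise among the 6 members of the highest bin. It was 369-fold higher in NICD tumor in the authors' deposited table (log2 fold change 8.53, adjusted p = 0.000345), an estimated 471 CPM in NICD tumor and 1.28 CPM in control. It lies on the X, and its nearest protein-coding gene, CG17636, was 72.8-fold higher in the same table. CG17636 was rare, with an estimated 1.57 CPM in NICD tumor and 0.022 CPM in control. CR45045, now annotated as coding, was 1569-fold higher (adjusted p = 0.000238), an estimated 28.8 CPM in NICD tumor and 0.018 CPM in control, and it lies within CG14322, 2.91-fold higher in the table. CR44138 was 143-fold higher (adjusted p = 1.24e-05), an estimated 26.1 CPM in NICD tumor and 0.183 CPM in control. It overlaps CG9813 on the opposite strand, which was 6.95-fold higher by the authors' deposited table.

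CR43283, known as cherub, was 21.9-fold higher in NICD tumor in the authors' deposited table (log2 fold change 4.45, adjusted p = 0.0104). In the larval brain cherub is a long noncoding RNA that binds the RNA-binding protein Staufen. It is abundant in brain tumors that arise from neural stem cells. Its estimated level here was 144 CPM in NICD tumor and 6.60 CPM in control. CR44029, which runs antisense to the synaptic gene unc-13, was 9.67-fold higher, with unc-13 6.11-fold higher, in the authors' deposited table. Smaller rises among the named abundant members in that table were those of CR43685 (2.57-fold) and CR43264 (2.02-fold).

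**Figure D3:**
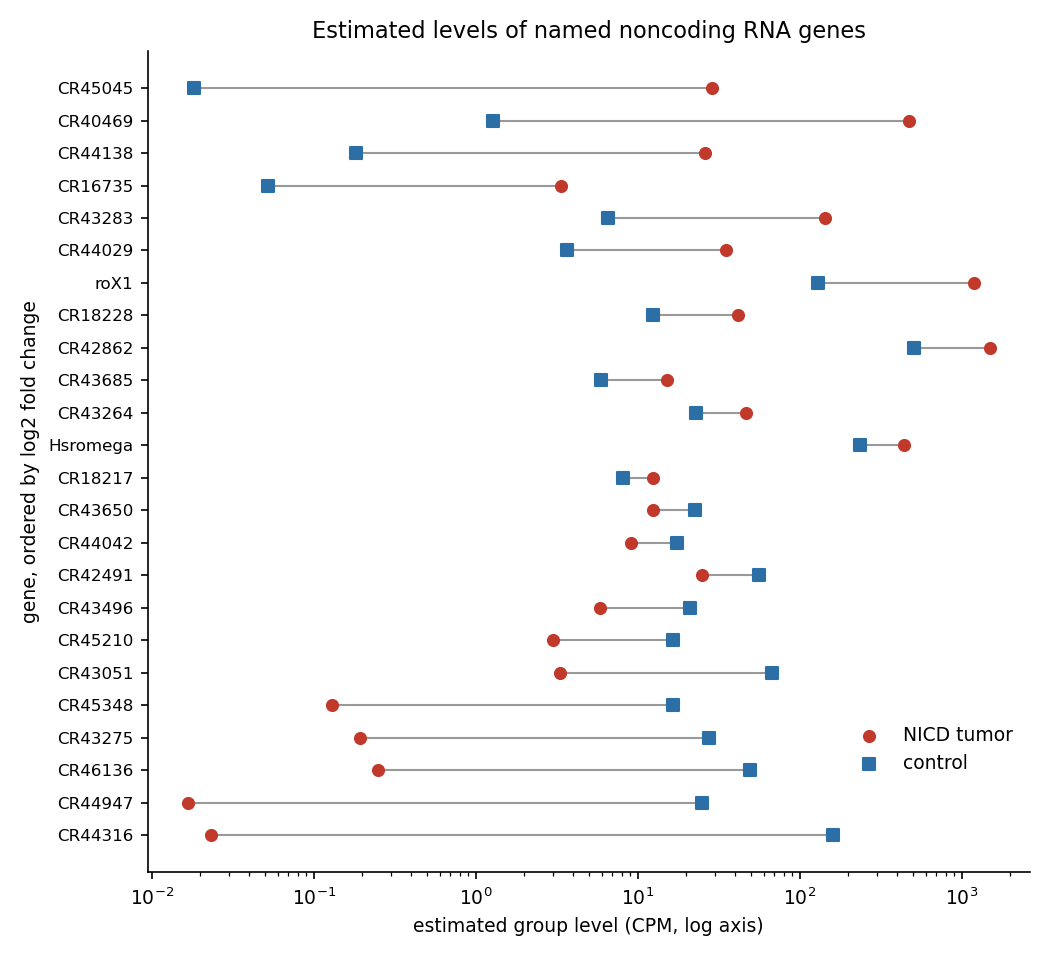
Estimated level in CPM, on a log axis, of the 24 named noncoding RNA genes that have a fold change, in NICD tumor (circles) and control (squares), ordered by log2 fold change with the largest rise at the top. CR42862, roX1, CR40469 and Hsromega were the highest in NICD tumor, and CR44316 had 0.023 CPM in NICD tumor against 160 CPM in control.

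The largest falls were as large as the largest rises. The median size of log2 fold change was 2.51 among the 60 lower members and 3.01 among the 102 higher ones. CR44316 was 6854-fold lower in NICD tumor in the authors' deposited table (log2 fold change -12.74, adjusted p = 1.01e-05), an estimated 0.023 CPM in NICD tumor and 160 CPM in control. At 306 CPM per kb it was the second most abundant member per length. Its nearest coding gene, mIF3, which encodes a mitochondrial translation initiation factor, was 2.43-fold lower in the same table. CR44947 was 1500-fold lower (adjusted p = 1.29e-05), an estimated 0.017 CPM in NICD tumor and 25.1 CPM in control, beside Ktl, 5.25-fold lower in the table. CR46136, antisense to the lipid kinase gene Pi4KIIalpha, was 198-fold lower (adjusted p = 7.82e-06) while Pi4KIIalpha was 2.88-fold lower by the authors' deposited table. CR45348 was 127-fold lower (adjusted p = 0.0010) and its nearest gene is Lsp1beta, a larval storage protein gene of fat body, which was 561-fold lower in the same table.

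Markers of cell types were counted in the same comparison. Of 12 salivary gland secretory markers 11 were listed and 11 were lower, with estimated sums of 164 CPM in NICD tumor and 278060 CPM in control. The defining glue gene Sgs3 was not at 0 in NICD tumor (estimated 4.51 CPM, against 52242 CPM in control). Of 10 fat body markers 8 were listed and 8 were lower, with sums of 1616 CPM in NICD tumor and 193770 CPM in control. Of 11 hemocyte markers 9 were listed and 9 were higher, with sums of 1694 CPM in NICD tumor and 32.4 CPM in control, and 1 of them, NimC4, was fitted at 0 in control. Of 8 tracheal markers 8 were listed and 8 were higher (948 CPM in NICD tumor and 225 CPM in control). The listed gland and fat body markers were thus lower and the listed hemocyte and tracheal markers higher, while members went both ways (102 higher and 60 lower). Of 8 muscle markers 6 were listed, 1 higher and 5 lower (328 CPM in NICD tumor and 1064 CPM in control), and of 7 neuron and glia markers 4 were listed, 3 higher and 1 lower (119 CPM in NICD tumor and 171 CPM in control). Of 15 testis and germline markers 5 were listed, 4 higher and 1 lower (132 CPM in NICD tumor and 190.2 CPM in control). Beside these counts, 65.6% of all tested genes were called, 34.0% higher and 31.6% lower. The part of these cell types in the changes of the noncoding RNA genes was not tested.

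Smaller falls were seen in several abundant members. CR43051, now annotated as coding, lies inside the growth regulator gene bun on the other strand and was 20.4-fold lower, an estimated 3.31 CPM in NICD tumor and 67.5 CPM in control, while bun was 2.13-fold higher by the authors' deposited table. CR42491, whose exons overlap those of the ribosomal protein gene RpL22 on the same strand, was 2.23-fold lower and RpL22 1.76-fold higher in that table. CR45210, antisense to nes, was 5.51-fold lower, with nes 2.56-fold lower, and CR43496, inside sov, 3.57-fold lower in the same table. CR44042 (1.93-fold) and CR43650 (1.83-fold) were lower with authors' adjusted p of 0.0316 and 0.0175.

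The members CR43855, CR44547, CR44277, CR43644 and CR44493 were fitted at 0 in a group, so no fold is given for them. Of these, 4 were fitted at 0 in control and 1, CR44493, in NICD tumor. CR43855 lies inside Sema1a, a guidance receptor gene that was 6.50-fold higher in NICD tumor in the authors' deposited table. CR43644 lies beside E(spl)m3-HLH. CR44277 lies inside blo, and CR44493 inside dpr2, neither of which is in the table.

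The most abundant of the pseudogenes, CR18228, was 3.34-fold higher in NICD tumor in the authors' deposited table (adjusted p = 0.000762), an estimated 41.5 CPM in NICD tumor and 12.4 CPM in control. It is antisense to mtg, 2.70-fold higher in that table. CR18217 was 1.54-fold higher, and CR16735 had the largest rise among pseudogenes at 64.1-fold in the authors' deposited table. CR43275 had the largest fall, 141-fold (adjusted p = 3.96e-05), an estimated 0.195 CPM in NICD tumor and 27.4 CPM in control. Its nearest coding gene is dup, a replication licensing gene 1.66-fold lower in the table. Another pseudogene beside dup, CR43186, was 19.4-fold lower by the authors' deposited table, and is named because of that value. Reads of a pseudogene can be counted for its parent gene or the reverse, so these values are uncertain.

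Position offered a measure that the symbols do not fix. By the later annotation 81 members overlap a protein-coding gene and 81 do not. Exons overlap on the opposite strand in 48, exons overlap on the same strand in 7, and in 26 the genes overlap without a shared exon. The overlapping gene, or otherwise the nearest one, was itself in the authors' deposited table for 100 members. All listed genes are called genes, so a pair can only move alike or apart. Of these 100 pairs, 79 moved in the same direction and 21 in opposite directions. Where the neighbour was higher 49 of 59 members were higher, and where it was lower 30 of 41 members were lower.

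The same count over protein-coding genes gives the background. Of 3068 listed protein-coding genes whose own overlapping or nearest coding gene was listed, 58.5% moved with it, against 79.0% of the members. In the lowest abundance bin the shares were 76.8% of 82 members and 63.6% of 675 coding genes, and among genes that changed at least 4-fold 81.9% of 72 members and 63.9% of 1126 coding genes. Members that overlap their neighbour moved with it in 37 of 47 pairs (78.7%), and members that do not overlap it in 42 of 53 pairs (79.3%). Across the 100 pairs the log2 fold changes had r of 0.59 and rho of 0.65, against 0.32 and 0.23 across the 3068 coding pairs. The pairs share libraries and, where they overlap, may share reads. The member changed by more than its neighbour in 72 of the 100 pairs, and the coding gene did so in 51.4% of the coding pairs. The 3068 coding pairs count genes that are each other's neighbour in both orders. Their share of larger changes is therefore partly fixed in advance and cannot serve as a background for the members. In the lowest abundance bin, with coding genes counted the same way, the shares were 69.5% of members and 65.3% of coding genes. Whether the authors' counting used the strand is not given in the sources used here, so for antisense and overlapping genes the reads of a pair cannot be told apart.

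**Figure D4:**
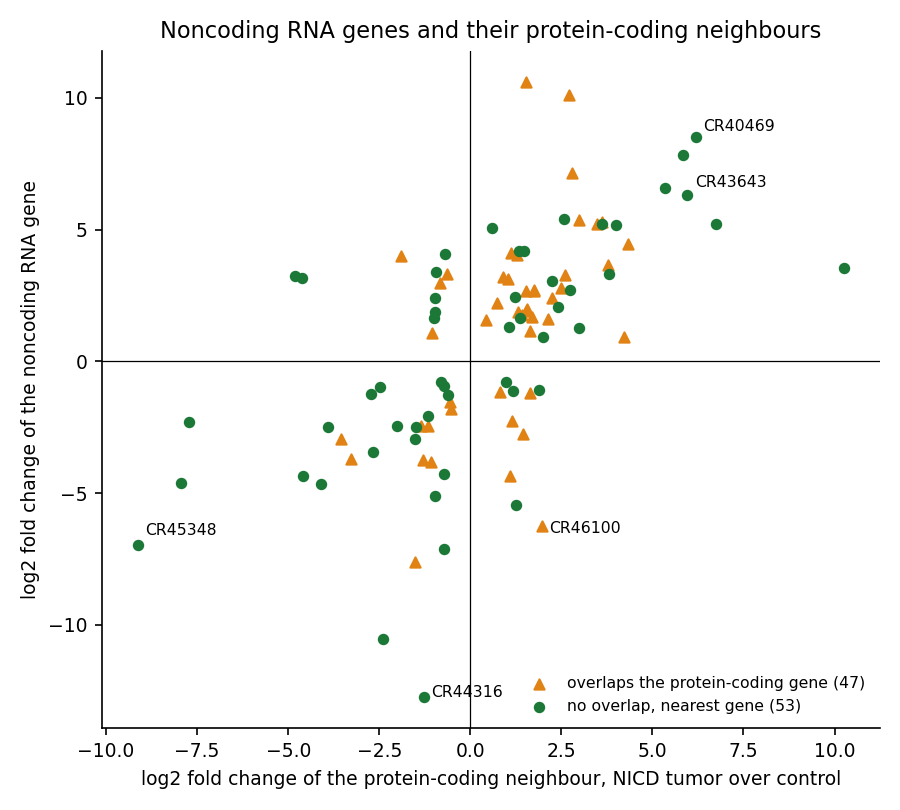
Each point is a noncoding RNA gene whose overlapping (triangles) or nearest (circles) protein-coding gene is also in the authors' deposited table, with the neighbour's log2 fold change on the x axis and the member's on the y axis, NICD tumor over control. Of 100 points 79 lie in the upper right or lower left quadrant, and members fitted at 0 in a group are drawn at the authors' shrunken value.

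Pairs that rose together included those of the E(spl) complex, whose repressor and Bearded-family genes are transcribed in response to Notch. Apart from CR43644, the members of that complex named here were chosen after their values were seen. CR43643 was 79.9-fold higher in NICD tumor in the authors' deposited table (adjusted p = 0.000197) beside E(spl)m2-BFM, which was 62.3-fold higher. CR45039 was 95.4-fold higher (adjusted p = 0.000674) beside E(spl)mbeta-HLH, 40.8-fold higher in the same table. Both were rare, with estimated levels of 4.10 CPM and 3.54 CPM in NICD tumor against 0.051 CPM and 0.037 CPM in control.

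Members within or across other protein-coding genes rose with them in the pairs that follow, chosen after their values were seen. CR44478, inside the JAK/STAT inhibitor gene Socs36E, was 38.5-fold higher and Socs36E 12.2-fold higher by the authors' deposited table. CR43653, named Irar, overlaps the insulin receptor gene InR and was 36.8-fold higher, with InR 11.2-fold higher in that table. CR46065, antisense to yellow-h on chromosome 4, was 21.8-fold higher and yellow-h 20.1-fold higher in the same table. CR44478, CR43653 and CR46065 were rare, with estimated levels of 1.52, 2.08 and 3.24 CPM in NICD tumor. In control their estimates were 0.039, 0.057 and 0.149 CPM. CR43957, antisense to ci, the transcription factor of Hedgehog signalling, was 3.67-fold higher and ci 2.47-fold higher there. All 5 listed members on chromosome 4 were higher, against 21 of 42 other listed genes on it. On the other autosomal arms 26 of 34 members were higher on 3L (49.4% of other genes), 27 of 40 on 3R (50.4%), 18 of 33 on 2R (53.0%) and 11 of 25 on 2L (47.2%).

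Other pairs, also chosen after their values were seen, went apart. CR46100, inside msi, was 75.3-fold lower and msi 3.93-fold higher by the authors' deposited table. Among antisense pairs with overlapping exons 22 of 25 moved together, and the other 3 were CR45566 with mino, CR43875 with alphaSnap and CR46093 with BRWD3. Both CR46035 (2.22-fold higher) and CR46036 (2.32-fold lower) lie inside osa, which encodes a subunit of the Brahma chromatin remodelling complex, and they moved in opposite directions in the authors' deposited table.

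Some members host small RNAs. By the later annotation 11 members contain a microRNA or snoRNA gene on their own strand, of which 5 were higher and 6 lower. They are described because of this annotation and not because of their values. CR43334 contains mir-ban, the growth-promoting and anti-apoptotic microRNA bantam, and was 9.53-fold higher by the authors' deposited table, an estimated 13.1 CPM in NICD tumor and 1.37 CPM in control (adjusted p = 0.000313). CR45916, around mir-9a, which limits sensory organ precursors, was 4.33-fold higher by the authors' deposited table. CR31044, around mir-279 and mir-996, was 3.09-fold higher and CR46194, around mir-281-1 and mir-281-2, 2.08-fold higher in that table. Hsromega also contains mir-4951.

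Hosts that fell included CR43650, which contains mir-8, a microRNA of the miR-200 family, with an estimated 12.5 CPM in NICD tumor and 22.8 CPM in control. CR43459, around mir-34 and mir-277, was 5.19-fold lower (adjusted p = 0.000447) and CR45345, around mir-375, 20.7-fold lower (adjusted p = 7.48e-05) in the authors' deposited table. CR43626, around mir-282, was 2.34-fold lower in the same table. The falling CR42491 and CR43051 contain snoRNA:Psi18S-531 and snoRNA:CG43051-a. The values are of the host transcripts, and mature microRNAs and snoRNAs were not measured by them.

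**Figure D5:**
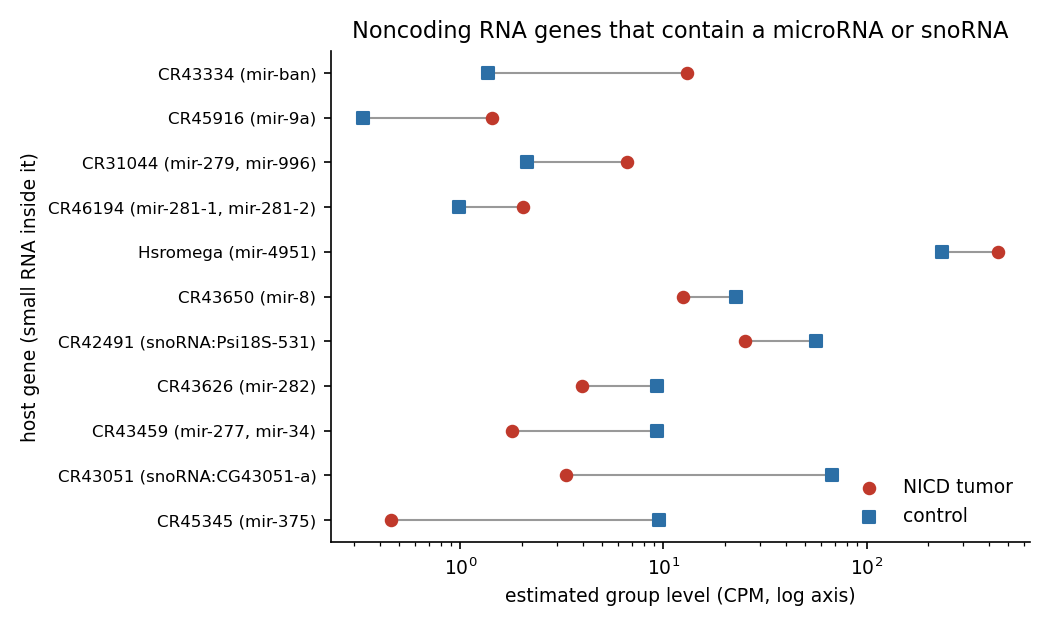
Estimated level in CPM, on a log axis, of the 11 noncoding RNA genes that contain a microRNA or snoRNA on their strand, in NICD tumor (circles) and control (squares), ordered by log2 fold change. The top 5, from CR43334 to Hsromega, were higher in NICD tumor and the lower 6, down to CR45345, were lower.

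Listed factors that act on noncoding transcripts went both ways. Of 24 genes of RNA turnover 9 (37.5%, against 65.6% of all tested genes) were in the authors' deposited table, 5 higher and 4 lower, with a median log2 fold change of 0.88. Mtr4, the helicase of the nuclear exosome, was 2.44-fold, the exosome nucleases Dis3 1.94-fold and Rrp6 1.84-fold higher, while the exosome subunit Rrp40 was 2.51-fold lower in that table. Of 18 snoRNA host and ribosome assembly genes 8 were listed, or 47.1% of the 17 distinct genes, since Uhg6 is a second name of Nop60B. The 47.1% lies below the 65.6% of all tested genes called. All 8 were higher with a median of 1.23, where 34.0% of all tested genes were called higher and 31.6% lower. Uhg2, Uhg4, Uhg5, Uhg7, Uhg8, NHP2, CG7637, hoip and Rat1 were not in the table. Myc was 5.33-fold, Nopp140 2.72-fold, Fib 2.60-fold and Nop56 1.91-fold higher by the authors' deposited table.

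Of 24 Hox and patterning genes, chosen because some of their loci hold known noncoding RNAs, 12 were listed, 10 higher and 2 lower, with a median of 1.73. The share listed, 12 of 24, lies below the 65.6% of all tested genes called, of which 34.0% were called higher and 31.6% lower as shares of all tested genes. Ubx was 1139-fold, wg 14.2-fold, toe 7.54-fold and eyg 3.87-fold higher by the authors' deposited table. Antp was 2.66-fold and sens 4.65-fold lower in that table, and are named because of those values. The noncoding RNA genes of these loci in the list, bxd, iab-4 and bft, were not in the table.

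The members differ from other listed genes in length. The median exon length was 1068.5 bases for members and 2101.5 bases for other listed genes in the later annotation. Members that were higher had a median of 1380 bases and members that were lower 734 bases, and among other genes the medians were 3232.5 and 1459 bases in the same order. The part of transcript length in the direction of change was not tested.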

How the data were processed

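RNA was sequenced from 3 NICD tumor and 3 control samples of the salivary gland imaginal ring. Per the labels' protocols, total RNA was taken with a Zymo kit and went through Illumina's library preparation. The submitters' processing notes name featureCounts and DESeq2 as the authors' tools, without versions. Not given in the sources used here are the aligner, genome build, annotation, strand setting and filters.

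Per the file headers, the authors' deposited table gives for each called gene its log2 fold change in a shrunken and an unshrunk form and its abundance as mean log2 CPM. It also gives the deposited p-value and the false discovery rate, called adjusted p here. The column names match edgeR's output for a fold-change threshold, so which tool made them is not settled. A second deposited sheet gives call numbers under the headings "log 1.2" and "log 2". The listed genes number 6156, equal to the calls of the authors under the first heading, out of 9384 tested. Folds are 2 raised to the shrunken value, which lies within 0.331 of the unshrunk one in every member with no group fitted at 0. An unshrunk size above 100 was read as a group fitted at 0 (5 members), with no fold printed.

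The group level was estimated on the assumption that the mean CPM lies midway between both groups. Genes were matched by identifier or name to the BDGP6 annotation (version 54, Ensembl release 115), 6138 of 6156 in all, for class, chromosome arm, exon length and neighbours. The neighbour is the protein-coding gene with the longest overlap, otherwise the nearest. That build may not be the authors', so no coordinates are printed, and no sequence was used here. Tables were made with Python 3.11.15, pandas 2.3.3 and scipy 1.17.1, and the counting and neighbour steps were tested on simulated data.

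With no value per sample, no gene was tested anew. Counts rest on the authors' deposited adjusted p below 0.05, and medians, shares and correlations across genes are descriptions. The members and gene lists were chosen with earlier results of these data known. Named genes followed a rule. It took members with a name in place of a CR number, the 10 largest rises and falls from a mean log2 CPM of 3.06 upward (the lower quartile of all listed genes), the 8 most abundant members and the 3 most abundant pseudogenes. It added the pseudogenes with the largest change each way, members fitted at 0, the neighbours of all these, and up to 4 genes of smallest adjusted p per list. This gave 29 members, and other genes are said to have been chosen after their values were seen. The alternatives were a limit of 0.01, a 2-fold minimum, the quartile filter, pseudogenes or genes fitted at 0 left out, the mean, the unshrunk value and only overlapping neighbours.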

Additional observations from a re-analysis of the deposited data

How the results depend on the processing

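Of the results, the counts and the median depended most on rare genes. Among members at or above the lower quartile of abundance 12 were higher and 12 lower, and their median log2 fold change was -0.074, reversed from 1.71; that filter leaves 24 members. The median was 0.92 as a mean, 1.64 (1.635) without genes fitted at 0, 1.64 with unshrunk values and those genes left out as well, 1.86 without pseudogenes, 1.94 at 2-fold or more and 2.35 at an adjusted p below 0.01, where 67 members were higher. Alternatives chosen after the data were seen gave 1.74 without genes now annotated as coding and 1.87 with 6 genes added that now carry a lncRNA: or asRNA: name. The share moving with the neighbour was 88.9% above the quartile and 77.8% to 83.3% otherwise. Lower dosage compensation genes numbered 0 of 2 at a limit of 0.01 and 0 of 2 at 2-fold. At 2-fold, turnover genes were 3 higher and 2 lower, and genes of the snoRNA host and ribosome assembly list 5 higher. At 0.01 there was 1 lower patterning gene. The cause of these moves was not tested. Of 29 named members 6 missed 0.01 and 4 missed 2-fold, and 24 of 24 kept their direction unshrunk. No paired analysis was possible because the files used here hold no value per sample, and for the same reason the planned DESeq2, low-count filter, left-out replicate and replicate block fits were not run. Depth per library is unknown.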

Other observations

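The symbol rule leaves out 6 listed genes that the later annotation names lncRNA: or asRNA:, of which 5 were higher and 1 lower in NICD tumor. They were chosen after their values were seen. The alphagamma-element gene CR32865 was 75.1-fold higher, noe 27.8-fold, yar 27.4-fold, Eig63F-2 8.45-fold and CG32368 8.43-fold higher by the authors' deposited table, and pncr016:2R was 13.96-fold lower in NICD tumor.

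The genes named next were also picked with their values known. The member CR45912 contains mir-315 on its opposite strand only and was 21.2-fold higher in NICD tumor in the authors' deposited table (adjusted p = 0.00365). CR44383, a pseudogene on the X, was 37.3-fold higher and its nearest coding gene sordd2 108-fold higher in the same table. CR45345, the host of mir-375, lies beside CG13950, which was 24.2-fold lower there, and the host itself was 20.7-fold lower.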
